A study of Mus musculus with 4 samples.

Results

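The R-spondin, LGR and Wnt feedback genes were examined in MC38, a line of mouse colon adenocarcinoma cells, in which Mgat5 had been knocked out by CRISPR-Cas9 or left intact. Its product, N-acetylglucosaminyltransferase V, builds a branch of the N-glycans carried by surface receptors. The list named 10 genes: the ligands Rspo1, Rspo2 and Rspo3, the receptors Lgr4, Lgr5 and Lgr6, the ubiquitin ligases Rnf43 and Znrf3, and the feedback genes Axin2 and Nkd1. Members were found by gene symbol in the array's annotation, taking the probe set with the highest mean signal. A probe set was matched for 9 of the 10, each with a single probe set, out of 19505 genes named on the array, and Rnf43 was not analysed here. The knockout group held clone 1 and clone 2, titled as clones of KO T5. The control group held cells with an empty vector (MOCK) and untransfected cells (WT), with 1 array per cell line and so n = 2 arrays per group. All 4 carry the MC38 background, and neither control is titled as a clone, so effects of cloning and of Mgat5 loss cannot be told apart. A cell label on all 4 samples names the knockout, and the groups here follow the titles. Values are log2 signals of the Clariom S mouse array, on which 1 log2 unit is a doubling of signal. Rspo3 was selected on its log2 signals, which differed between the groups on these arrays, and its difference is therefore described with no test. The other members were chosen by their place in the pathway, with earlier results of these data known. Their probe sets were taken by the highest mean over the arrays.

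R-spondins are secreted proteins that bind LGR4, LGR5 or LGR6 at the cell surface and draw the ubiquitin ligases RNF43 and ZNRF3 into a complex that is cleared from the membrane. These ligases otherwise remove Frizzled receptors, so an R-spondin raises the response to Wnt ligands without being a Wnt itself. Axin2, Nkd1, Rnf43, Znrf3 and Lgr5 are widely used readouts of Wnt/beta-catenin signalling because their transcription goes up with it, and in the intestinal crypt R-spondins come mainly from stromal cells and maintain LGR5+ stem cells.

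The scale of the arrays sets what can be read. The negative-control features had a median of 5.16 in clone 1, 5.20 in clone 2, 5.22 in MOCK and 5.12 in WT, and a 75th percentile of 6.42, 6.49, 6.56 and 6.29 in the same order. Signals under that percentile are called at background here. Over all probe sets the 75th percentile was 9.39 in clone 1, 9.60 in clone 2, 9.26 in MOCK and 8.87 in WT, so the WT array was the dimmest among bright probe sets. The median difference over all 22206 probe sets, knockout minus control, was 0.18 log2 units as deposited and -0.02 after quantile normalization. Mgat5 was at 7.46 in clone 1 and 7.57 in clone 2, against 8.19 in MOCK and 8.27 in WT, a 1.64-fold lower mean that did not pass the limma test (adjusted p = 0.631, and 0.419 to 1 over the alternatives). Of 11 markers of colon epithelium, such as Krt8 and Cdx1, 0 were above background on any array, so the labelled epithelial origin was not visible in these markers.

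Among the ligands, Rspo3 alone left the background, and it did so in the clones. Rspo3 encodes an R-spondin that in other tissues is made by endothelial and stromal cells. Its log2 signal was 9.26 in clone 1 and 7.75 in clone 2, against 5.16 in MOCK and 5.01 in WT. Both clones lay above both controls, and both controls lay under the median of the negative controls. The means were 8.51 ± 1.06 in the knockout and 5.09 ± 0.10 in the controls (SD, n = 2 each). Because the controls had no signal above background, the difference is given as a bound: with each control set to the 75th percentile of its negative controls, the knockout mean was at least 4.23-fold higher. The level reached differed between the clones, with clone 1 at percentile 96.2 of its negative controls and clone 2 at percentile 89.2. After quantile normalization Rspo3 was at 9.14 in clone 1 and 7.48 in clone 2, against 5.13 in MOCK and 5.12 in WT.

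Rspo1 and Rspo2, which encode R-spondins that act through the same receptors, were at background on all 4 arrays. Rspo1 was at 4.11 in clone 1 and 4.39 in clone 2, against 4.87 in MOCK and 4.37 in WT, and the groups overlapped. Rspo2 was at 4.31 and 4.43 in clone 1 and clone 2, against 4.48 and 4.45 in MOCK and WT. The clones lay below both controls for Rspo2, by a gap far smaller than the width of the background. No fold is given for either gene.

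Markers of endothelial cells, leukocytes and fibroblasts were read beside Rspo3, and their part in its signal was not tested. Of 6 endothelial markers and 5 leukocyte markers, 0 were above background on any array. The summed linear signal of the endothelial markers was 92.9 in clone 1 and 106 in clone 2, against 144 in MOCK and 147 in WT, with Vwf and Emcn the highest by mean. For the leukocyte markers, led by Ptprc and Adgre1, the sums were 72.6 and 97.1 in clone 1 and clone 2, against 87.7 and 77.0 in MOCK and WT. Of 7 measured fibroblast markers, 3 were above background on all arrays, and the summed signal of the 7 was 6352 in clone 1 and 8356 in clone 2, against 14422 in MOCK and 18913 in WT. The widest gap was that of Dcn, the matrix proteoglycan decorin, at 8.94 and 11.18 in clone 1 and clone 2, against 12.95 and 13.61 in MOCK and WT. Pdgfrb, a receptor of mesenchymal cells, was at 11.70 and 12.02 in clone 1 and clone 2, against 11.47 and 11.42 in MOCK and WT. By mean, 4 of the 7 fibroblast markers were higher and 3 lower, with a median difference of 0.42 log2 units as deposited and -0.036 after quantile normalization. Both clones lay above both controls for 2 of the 7 and below both for 2, as deposited, and for 0 and 2 after quantile normalization. Over all probe sets these shares were 27.8% and 11.7% as deposited and 19.2% and 21.3% after quantile normalization.

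**Figure D1:**
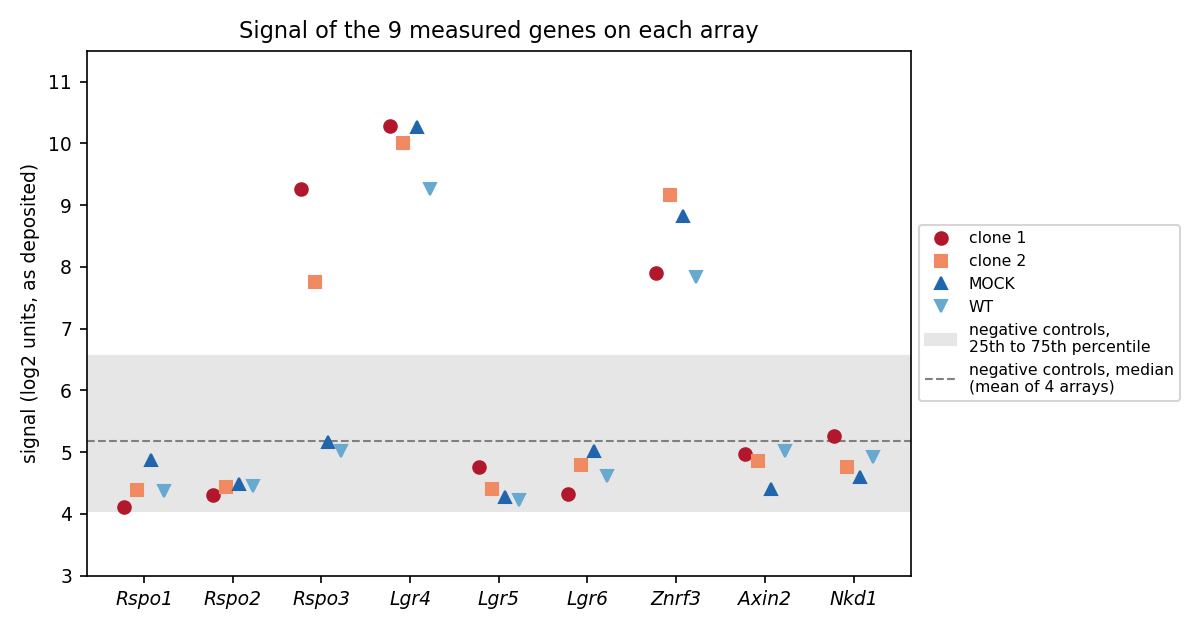
Log2 signal as deposited (vertical axis) of the 9 measured genes on each of the 4 arrays, with clones in red shades and controls in blue shades. The grey band spans the lowest 25th and the highest 75th percentile of the negative controls over the arrays. Rspo3 lies above the band in clone 1 (9.26) and clone 2 (7.75) and inside it in MOCK (5.16) and WT (5.01), while Lgr4 and Znrf3 lie above it on all 4 arrays.

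Of the receptors, Lgr4 was expressed with or without the knockout. Lgr4 encodes a broadly expressed R-spondin receptor. Its signal was 10.29 in clone 1 and 9.998 in clone 2, against 10.26 in MOCK and 9.26 in WT, at percentiles 96.9 to 97.7 of the negative controls. Clone 1, clone 2 and MOCK were close together and WT stood lowest, so the groups overlapped. The knockout mean was 10.14 ± 0.21 and the control mean 9.76 ± 0.71 (SD, n = 2 each), a difference of 0.38 log2 units (SE 0.43, 95% confidence interval -0.58 to 1.34) that did not pass limma (adjusted p = 0.841, and 0.590 to 1 over the alternatives). After quantile normalization the difference was -0.043 log2 units (95% confidence interval -0.84 to 0.75), and the order of the arrays became MOCK, clone 1, WT and clone 2 from high to low. The 2 intervals leave room for a change of Lgr4 in either direction.

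Lgr5, the receptor that marks intestinal stem cells and is itself a Wnt target, was at background on every array. It was at 4.76 in clone 1 and 4.40 in clone 2, against 4.28 in MOCK and 4.23 in WT. The array order was that of Rspo3, but all values were below the median of the negative controls, at percentiles 28.3 to 41.3. Lgr6, a receptor found in skin stem cells among others, was at 4.33 and 4.80 in clone 1 and clone 2, against 5.01 and 4.62 in MOCK and WT, also at background. The Lgr6 groups overlapped.

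Znrf3, the measured member of the pair of ligases that R-spondins clear from the membrane, was above background on all 4 arrays, and its groups overlapped. Its signal was 7.89 in clone 1 and 9.16 in clone 2, against 8.82 in MOCK and 7.83 in WT. These values lay at percentiles 90.4 to 95.9 of the negative controls. One clone and one control were high, and the other clone and the other control were low. The clone with the higher Rspo3 signal had the lower Znrf3 signal. The group means were 8.53 ± 0.90 in the knockout and 8.32 ± 0.70 in the controls (SD, n = 2 each), and the difference of 0.20 log2 units (SE 0.51, 95% confidence interval -0.92 to 1.33) did not pass limma (adjusted p = 0.942, and 0.578 to 1 over the alternatives). After quantile normalization the values were 7.79 and 8.85 in clone 1 and clone 2, against 8.85 and 8.19 in MOCK and WT, and the difference was -0.20 (95% confidence interval -1.19 to 0.79). These intervals, too, leave room for a change in either direction.

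Neither feedback gene left the background. Axin2 encodes a scaffold of the beta-catenin destruction complex and is the usual transcriptional readout of the pathway. It was at 4.98 in clone 1 and 4.86 in clone 2, against 4.41 in MOCK and 5.01 in WT, at percentiles 31.4 to 47.4 of the negative controls. Both clones lay between the controls. Nkd1 encodes a Wnt-induced inhibitor that binds Dishevelled. It was at 5.26 and 4.77 in clone 1 and clone 2, against 4.60 and 4.92 in MOCK and WT, so the groups overlapped here too. A gene that is silent and a gene whose probes read it poorly cannot be told apart on these arrays.

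Of the 8 members beside Rspo3, limma called 0 at an adjusted p under 0.05, against 0.0405% of all probe sets, and 0 had an unadjusted p under 0.05. Their adjusted p-values ran from 0.821 to 0.964. After quantile normalization the count was again 0 of 8 at an adjusted or an unadjusted p under 0.05, with 0.0045% of all probe sets called. The share of all probe sets with an unadjusted p under 0.05 was not counted, so nothing is read from the unadjusted counts. The 6 members at background on every array, Rspo1, Rspo2, Lgr5, Lgr6, Axin2 and Nkd1, had signals of 4.11 to 5.26 and differences of -0.37 to 0.33 log2 units (SE 0.37 to 0.39). The median difference of the 8 members was 0.20 log2 units, beside 0.18 over all probe sets, and after quantile normalization -0.082 beside -0.021. With Rspo3 included, the 9 measured members had medians of 0.21 and -0.043.

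Both clones lay above both controls for 2 of 9 members, Rspo3 and Lgr5, where 27.8% of all probe sets did so, and below both for 1, Rspo2, where 11.7% did. After quantile normalization the counts were 2, again Rspo3 and Lgr5, beside 19.2% of all probe sets, and 2, Rspo1 and Rspo2, beside 21.3%. Among these 4 genes only Rspo3 had a signal above background on any array.

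Set out array by array, which carries no test, 1 of 9 members was at least 1 log2 unit from the mean of the controls in clone 1, beside 8.61% of all probe sets, and 1 of 9 in clone 2, beside 13.7%. That member was Rspo3, which was selected on these values, so nothing is read from the counts. Against controls set to the 75th percentile of their negative controls, it was at least 2.83 log2 units higher in clone 1 and at least 1.33 higher in clone 2. Between the clones, 2 of 9 members were at least 1 unit apart, beside 12.7% of all probe sets. The difference, clone 2 minus clone 1, was -1.51 log2 units for Rspo3 and 1.27 for Znrf3. Between the controls, Lgr4 was 1.00 higher in MOCK than in WT and was the 1 member of 9 past the limit, beside 10.1% of all probe sets, while Znrf3 was 0.99 higher. After quantile normalization these differences between MOCK and WT were 0.53 and 0.65. For both Lgr4 and Znrf3 the controls therefore differed by more than the group means did, as deposited and after quantile normalization.

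**Figure D2:**
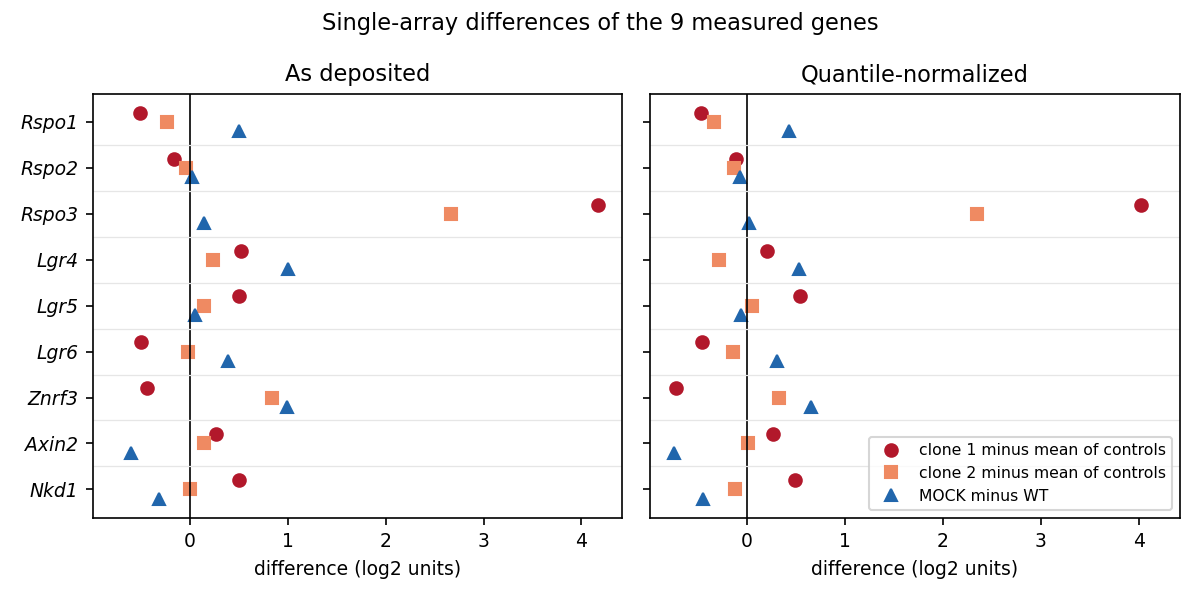
Differences in log2 units (horizontal axis) of each of the 9 measured genes for clone 1 and clone 2, each minus the mean of MOCK and WT, and for MOCK minus WT, as deposited (left) and quantile-normalized (right). Each point rests on single arrays. Rspo3 is drawn at its measured differences, although its controls were at background and only a bound can be read. The other 8 genes stay within 1 unit of the mean of the controls in both clones.

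The wider pathway was read through 6 gene lists with 89 measured genes of 95 listed. Ctnnb1 (beta-catenin), Dvl2, Tcf7, Ccnd1, Ephb2 and Olfm4 were listed but matched no probe set and were not analysed here. Limma called 0 of 89, beside 0.0405% of all probe sets. An unadjusted p under 0.05 was found for 10 of the 89, all higher in the knockout. The matching share of all probe sets was not counted, so nothing is read from these 10. As deposited 63 were higher and 26 lower by mean, with a median of 0.16 log2 units beside 0.18 over all probe sets. Both clones lay above both controls for 23 of the 89, beside 27.8% of all probe sets, and below both for 5, beside 11.7%. After quantile normalization these counts were 20, beside 19.2%, and 10, beside 21.3%. On that scale the median was 0.047 beside -0.021, and 0 were called. The share with both clones above was thus near that of all probe sets. The share with both clones below was smaller than that of all probe sets on both scales, and this was not tested. Signals above the median of the negative controls on all 4 arrays were found for 35 of the 89.

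Of 21 Wnt ligands and secretion genes, 14 were higher and 7 lower, and 0 were called. The single ligand above the median of the negative controls on all arrays was Wnt5a, which mostly acts outside the beta-catenin branch. Wnt5a was at 6.78 in clone 1 and 9.31 in clone 2, against 6.84 in MOCK and 6.74 in WT. It was high in clone 2 alone, and limma's adjusted p was 0.641. Porcn, the acyltransferase that lipidates Wnts, was at 9.86 and 10.20 in clone 1 and clone 2, against 9.35 and 8.71 in MOCK and WT (adjusted p = 0.516). Wls, which carries Wnts to the surface, was at 12.80 and 13.13 against 13.44 and 12.59 in the same order, and the groups overlapped as deposited. After quantile normalization both clones lay below both controls for Wls, at 12.62 and 12.84 against 13.26 and 13.24. The Wls difference on that scale was -0.52 log2 units (limma adjusted p = 0.648), and 21.3% of all probe sets had both clones below.

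The receptor list had the highest median of the 6 lists, 0.33 log2 units as deposited and 0.21 after quantile normalization, with 0 called. As deposited 13 of 15 genes were higher and 2 lower, and after quantile normalization 10 and 5. Both clones lay above both controls for 8 of the 15, beside 27.8% of all probe sets, and below both for 0, beside 11.7%. After quantile normalization the counts were 6, beside 19.2%, and 2, beside 21.3%. Of the 8 as deposited, Fzd3, Fzd4, Fzd9 and Ror1 were at background on every array, and only Fzd2, Fzd5 and Fzd7 were above it on all 4. The count of 8 therefore rests in part on background values. Fzd5, a Frizzled receptor of intestinal epithelium, was at 8.19 in clone 1 and 8.48 in clone 2, against 7.49 in MOCK and 6.60 in WT. Its difference was 1.30 log2 units (SE 0.42, limma adjusted p = 0.391), or 0.93 after quantile normalization. Fzd2, another Frizzled, was at 11.77 and 10.90 in clone 1 and clone 2, against 10.32 and 10.30 in MOCK and WT. After quantile normalization the groups of Fzd2 overlapped. Fzd1, at 6.33 and 6.85 against 5.81 and 5.39 in the same order, was above background in clone 2 alone, so no fold is given. Fzd8, named after its values were seen, went the other way, at 5.97 and 6.82 in clone 1 and clone 2, against 7.64 and 6.59 in MOCK and WT. The Fzd8 difference was -0.72 log2 units as deposited and -1.04 after quantile normalization, with the groups overlapping as deposited. Fzd8 was at background in clone 1, so the size of its difference rests in part on a background value.

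Of 16 antagonists, 8 were higher and 8 lower as deposited, and 6 higher and 10 lower after quantile normalization, with 0 called either way. Their median difference was -0.018 as deposited and -0.17 on the quantile scale. Above background on any array were 3 of the 16. Kremen1, a receptor for DKK antagonists, was at 8.16 in clone 1 and 8.02 in clone 2, against 8.15 in MOCK and 7.77 in WT. Notum, a secreted enzyme that removes the lipid from Wnts and is a Wnt target in the gut, was at 6.63 and 6.22 against 6.50 and 6.28 in the same order, and above background in clone 1 alone. Neither gene separated the groups as deposited. After quantile normalization both clones lay below both controls for Kremen1, at 8.07 and 7.75 against 8.19 and 8.14 in the same order. That Kremen1 difference was -0.26 log2 units, and 21.3% of all probe sets had both clones below on that scale. The Notum groups overlapped on both scales.

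Of 16 measured genes of the destruction complex and nuclear transducers, 11 were higher and 5 lower as deposited, and 6 higher and 10 lower after quantile normalization, with 0 called either way. The sign of the list's median turned too, at 0.27 as deposited and -0.16 after quantile normalization. Tcf7l1, a TCF factor that mostly represses its targets, was at 8.09 in clone 1 and 8.41 in clone 2, against 7.02 in MOCK and 6.60 in WT. Its difference was 1.44 log2 units (SE 0.39, limma adjusted p = 0.285), or 1.07 after quantile normalization. Bcl9l, a coactivator of beta-catenin, was at 9.49 and 10.06 in clone 1 and clone 2, against 8.72 and 8.54 in MOCK and WT. Axin1, the constitutive relative of Axin2, was at 9.67 and 9.46 against 8.75 and 8.49 in the same order. For all 3 genes both clones lay above both controls, as deposited and after quantile normalization. They were picked for the largest differences of their list, so nothing is read from that count. Over the 16 genes, both clones lay above both controls for 5, beside 27.8% of all probe sets, and below both for 1, beside 11.7%. After quantile normalization the list again had 5, beside 19.2%, and 1, beside 21.3%.

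Among 16 measured genes of other Wnt targets and intestinal stem cells, 13 were higher and 3 lower as deposited, and 0 were called. After quantile normalization 10 were higher and 6 lower. The median difference of the 16 was 0.23 as deposited and 0.095 on the quantile scale. Above background on any array were 6 of the 16. Msi1, which encodes the RNA-binding protein Musashi-1 of stem and progenitor cells, showed the largest difference of the 89 pathway genes. It was at 8.31 in clone 1 and 9.18 in clone 2, against 6.80 in MOCK and 6.34 in WT, and both clones lay well above both controls. The mean was 8.74 ± 0.62 in the knockout and 6.57 ± 0.33 in the controls (SD, n = 2 each), or 4.50-fold higher (SE 0.43 log2 units), with a limma adjusted p of 0.121. The control signals were close to background, at percentile 78.0 of the negative controls in MOCK and 76.0 in WT. After quantile normalization the difference was 1.80 log2 units (limma adjusted p = 0.220). Msi1 passed when dim probe sets were left out or the variance prior was made trended and robust, with adjusted p-values from 0.0013 to 1 over the alternatives. Myc was at 15.15 and 16.01 in clone 1 and clone 2, against 15.03 and 14.10 in MOCK and WT, and after quantile normalization the groups overlapped. Cd44, a surface glycoprotein, was at 15.04 and 15.27 against 15.29 and 14.19 in the same order, with the groups overlapping.

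Of the 5 other R-spondins and R-spondin partners, 4 were higher and 1 lower as deposited, and 0 were called. Sdc4 encodes syndecan-4, which binds R-spondin 3 in frog embryos. It was at 13.84 in clone 1 and 14.17 in clone 2, against 13.90 in MOCK and 12.67 in WT, with the groups overlapping. Sdc1, which encodes syndecan-1, was at 11.58 and 10.03 in clone 1 and clone 2, against 10.49 and 10.38 in MOCK and WT. Clone 1, the clone with the higher Rspo3 signal, was the high array for Sdc1, and clone 2 was below both controls.

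**Figure D3:**
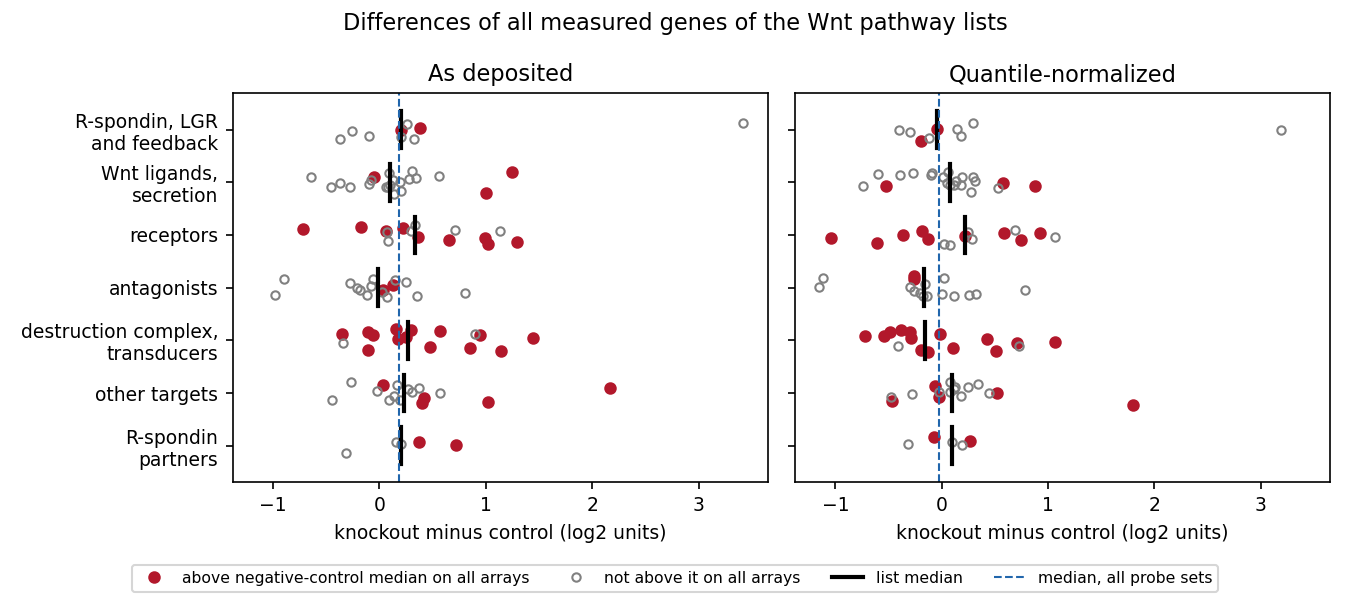
Difference, knockout minus control, in log2 units (horizontal axis) of every measured gene of the R-spondin list and of the 6 pathway lists, as deposited (left) and quantile-normalized (right). Filled points are genes above the median of the negative controls on all arrays, black bars are list medians, and the dashed line is the median over all probe sets (0.18 and -0.02). Rspo3, selected on these values and with controls at background, is the open point farthest to the right in its list.

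**Figure D4:**
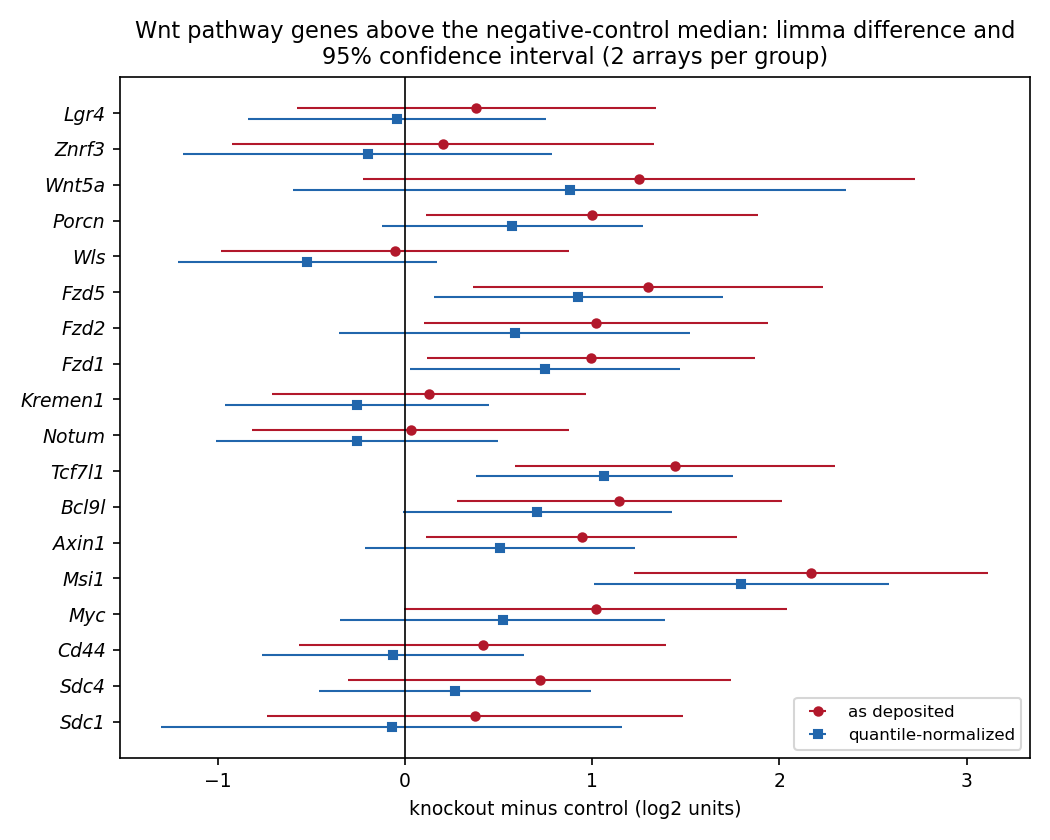
Limma difference, knockout minus control, with its 95% confidence interval, not adjusted for the number of genes (horizontal axis, log2 units), for Lgr4, Znrf3 and the named pathway genes, as deposited (red circles) and quantile-normalized (blue squares). The intervals of Lgr4 and Znrf3 span 0 on both scales, and those of Msi1, Tcf7l1, Fzd5 and Fzd1 do not. The named pathway genes were picked for the largest differences of their lists, which favours intervals that exclude 0. For Msi1, Tcf7l1, Fzd5 and Fzd1 the limma adjusted p-values were 0.121, 0.285, 0.391 and 0.513 as deposited. Fzd1 was above background in clone 2 alone.

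The genes whose array profile was closest to that of Rspo3 were found outside the Wnt lists. Likeness was the Euclidean distance between log2 profiles over the 4 arrays, each centred on its own mean, among 10116 other genes with a mean above the median of the negative controls. With 4 arrays this is a description of these arrays. The nearest 5 were Car6, a secreted carbonic anhydrase, at a distance of 0.85, then Rnd1, a small GTP-binding protein, at 0.93, Nipsnap3b at 1.14, Mme, the cell-surface peptidase neprilysin, at 1.16, and Galt, an enzyme of galactose metabolism, at 1.18. Car6 was at 10.54 in clone 1 and 9.75 in clone 2, against 7.40 in MOCK and 6.31 in WT. Rnd1 was at 10.51 and 9.81 in clone 1 and clone 2, against 7.71 and 7.04 in MOCK and WT. The search itself favours genes with clone 1 highest and both controls lowest, and the Rspo3 values it starts from were at background in the controls. After quantile normalization all 5 were among the 7 nearest. The RefSeq table places Car6, Nipsnap3b and Galt, 3 of the 5, on chromosome 4, where 6.15% of the ranked genes lie. The 5 were picked by likeness to the selected Rspo3 values, so nothing is read from that count. Galt, at 6.03 in MOCK and 5.56 in WT, was at background in both controls.

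**Figure D5:**
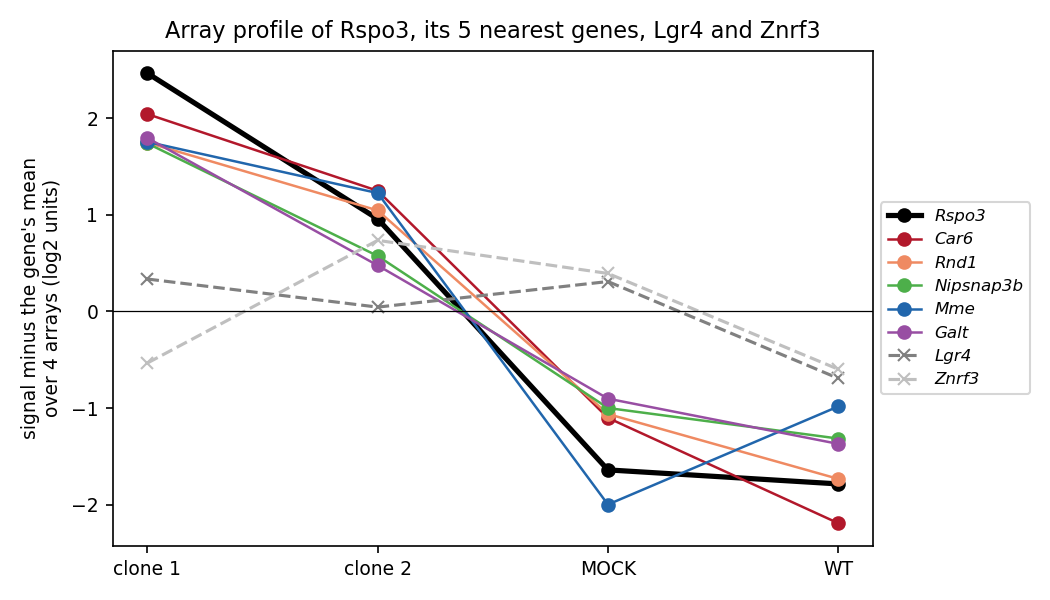
Log2 signal minus each gene's own mean over the 4 arrays (vertical axis) on clone 1, clone 2, MOCK and WT for Rspo3, the 5 genes nearest to it, and Lgr4 and Znrf3 (dashed). The 5 genes were picked for their likeness to Rspo3, and the groups overlap for Lgr4 and Znrf3.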

How the data were processed

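Per the labels' protocols, total RNA from each of 4 MC38 samples was amplified, copied to cDNA, biotin-labelled and read on 1 Clariom S mouse array. The deposited values are log2 signals that the authors made with the Transcriptome Analysis Console, per the submitters' processing notes. The sources used here give neither its version nor the normalization. Labels do not say whether arrays are separate cultures, so p-values measure only the spread between these arrays, whose number limits the precision.

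Of 28846 features, 6640 controls were left out, 5222 of them negative controls used as background, and 22206 probe sets were tested. Symbols came from the platform annotation, and 0 changed through the RefSeq table of GRCm38.p6. The test was limma 3.58.1 (R 4.3.3), knockout minus control, Benjamini-Hochberg over all probe sets, checked on simulated data. Members and lists were chosen with earlier results of these data known. Named genes were the members, Mgat5, the 3 largest differences per pathway list among genes above the negative-control median on all arrays, the 5 genes nearest to Rspo3, and 2 markers per cell type. Alternatives were quantile normalization, median centring, 2 filters, another variance prior, averaged probe sets and leaving out each array.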

Additional observations from a re-analysis of the deposited data

How the results depend on the processing

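The 8 members beside Rspo3 gave 0 calls under each of the 10 alternatives run. The count of called probe sets, 9 as deposited, was 1 after quantile normalization, 125 and 196 with filters at the 25th percentile and the median of mean signal, 340 with the trended robust prior, and 0 (without WT) to 529 (without clone 1) with 1 array left out; without MOCK it was 1 and without clone 2 it was 149. Pathway genes called numbered 0 as deposited, 1 with either filter or the trended robust prior (Msi1), and 0 to 2 with 1 array left out. These were Wnt5a and Msi1 without clone 1, and Bambi, picked out after seeing its value, without clone 2 (2.13 log2 units, limma adjusted p = 0.0445). The median over the members, 0.21 as deposited, was -0.043 after quantile normalization, 0.069 after median centring, 0.38 with the filter at the median and -0.11 (without WT) to 0.27 with 1 array left out. Members at least 1 unit apart between MOCK and WT numbered 0 after quantile normalization or median centring, and 1 as deposited. In clone 1 and in clone 2 they numbered 1 to 2 with 1 array left out, 2 being without MOCK. The cause was not tested in these cases.

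Several uncalled differences changed sign. After quantile normalization Lgr4 was -0.043, Znrf3 -0.20, Cd44 -0.065, Kremen1 -0.26, Notum -0.26 and Sdc1 -0.071, and after median centring Kremen1 was -0.0078 and Notum -0.11. With 1 array left out, the ranges were -0.12 to 0.88 for Lgr4, -0.43 to 0.84 for Znrf3, -0.095 to 0.51 for Axin2, -0.13 to 0.96 for Cd44, -0.057 to 0.32 for Kremen1, -0.18 to 0.24 for Notum, -0.41 to 1.15 for Sdc1, -0.48 to 0.38 for Wls and -0.017 to 2.52 for Wnt5a. A fit without 1 array assumes that the lone array of its group varies like the other group. No paired analysis was possible because the labels number the clones but not the controls. Signal near the negative controls limits what 6 of the 9 members can show.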
